A study of Mus musculus with 6 samples.

Results

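In all, 9 receptors for chemoattractants were followed in mouse macrophages: the chemokine receptors Ccr1, Ccr2, Cx3cr1, Cxcr3 and Cxcr4, the formyl peptide receptors Fpr1 and Fpr2, and the complement peptide receptors C5ar1 and C3ar1. The 9 genes were taken by symbol from a table of 23504 genes, and all 9 were listed and passed the filter of a mean of 1 FPKM (fragments per kilobase of gene, scaled to the size of the library), as did 10965 genes in all. The choice was made with the comparison of DASA-58 and DMSO in view, in which Fpr1 and Cxcr3 were known to be higher and Cx3cr1 lower. The values of the 9 receptors in that comparison are therefore a description and carry no test.

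The cells were bone marrow–derived macrophages (BMMs) of male C57BL/6 mice aged 6 to 8 weeks, grown with M-CSF. In 3 libraries the cells had received DASA-58, an activator of the glycolytic enzyme PKM2, and in 3 libraries DMSO, its solvent, and RNA was taken after 3 days. RANKL, the cytokine that drives macrophages toward osteoclasts, was given with DASA-58. The study's results text says that both groups were induced with it, whereas its methods do not name RANKL for the DMSO cells. No concentration of DASA-58 is given for this experiment, the methods write DASA-48 for the compound, and nothing says whether the 3 libraries of a group came from separate animals, so that the errors measure the spread between these libraries. The depth recovered from the FPKM steps lay between 18209396 and 18853041 fragments with DMSO and between 18191560 and 18968556 with DASA-58. The macrophage markers Adgre1, Csf1r, Cd68, Itgam, Cd14, Mertk, Fcgr1 and Lyz2 were present in every library, with a summed level of 16412 to 17255 FPKM with DMSO and 17342 to 19651 FPKM with DASA-58, and 3 of the 8 rose and 1 fell (adjusted p under 0.05, limma). All 9 tested of 10 osteoclast markers fell, and their summed level was 778 to 833 FPKM with DMSO and 449 to 467 FPKM with DASA-58, and the part of this difference in the receptor values was not tested. At the same threshold, 4.24% of all genes tested rose and 7.28% fell. In RNA from bulk cultures, fewer cells of a type and less RNA per cell cannot be told apart.

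These receptors span the membrane repeatedly and pass their signal through G proteins of the Gi class, which set off calcium release, activation of PI3-kinase gamma and movement along a gradient. Monocytes and macrophages use CCR2 to leave the bone marrow, CX3CR1 to patrol and survive, CXCR4 to be held in the marrow, and the formyl peptide and complement receptors to find bacteria and damaged tissue. Osteoclast precursors come from the same lineage and carry several of these receptors, among them CCR1, CX3CR1 and CXCR4.

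Some of the genes lie beside others of their family and some do not, in the GENCODE annotation of GRCm38. The submitters' processing notes name mm8 instead, but the deposited table holds no coordinates, and GENCODE gene lengths returned whole fragments for 90.9% of its genes, all 9 receptors included. Ccr1 (ENSMUSG00000025804, chromosome 9, 123962124 to 123968692, minus strand) and Ccr2 (ENSMUSG00000049103, chromosome 9, 124101950 to 124113557, plus strand) belong to a cluster of 8 chemokine receptor genes within 469261 bases. Cx3cr1 (ENSMUSG00000052336, minus strand) lies on the same chromosome from 119901616 to 120069879. Fpr1 (ENSMUSG00000045551, chromosome 17, 17876471 to 17883940, minus strand) and Fpr2 (ENSMUSG00000052270, chromosome 17, 17887824 to 17893952, plus strand) point away from each other, with 3885 bases between their RefSeq starts. C5ar1 (ENSMUSG00000049130) lies on chromosome 7 from 16246743 to 16259540, 2589 bases from C5ar2, and C3ar1 (ENSMUSG00000040552) on chromosome 6 from 122847138 to 122856161. Cxcr4 (ENSMUSG00000045382) lies on chromosome 1 from 128588199 to 128592293 and Cxcr3 (ENSMUSG00000050232) on chromosome X from 101731535 to 101734269, all 4 on the minus strand.

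The 250 bases before the RefSeq start (GRCm38.p6) are shown for Fpr1 and Fpr2, the neighbours that were both higher with DASA-58, and for Ccr1, the receptor with the largest decrease. Capitals mark GGAAA, the core recognised by NFAT factors, or TTTCC, the same letters on the other strand, and each line runs 5′ to 3′ along the gene.
Fpr1, chr17:17883940-17884189, minus strand: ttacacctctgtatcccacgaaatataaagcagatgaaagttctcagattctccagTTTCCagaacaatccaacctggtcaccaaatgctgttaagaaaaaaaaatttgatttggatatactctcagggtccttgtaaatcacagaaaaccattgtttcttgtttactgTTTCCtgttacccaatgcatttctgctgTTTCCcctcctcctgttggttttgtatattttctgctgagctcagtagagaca
Fpr2, chr17:17887574-17887823, plus strand: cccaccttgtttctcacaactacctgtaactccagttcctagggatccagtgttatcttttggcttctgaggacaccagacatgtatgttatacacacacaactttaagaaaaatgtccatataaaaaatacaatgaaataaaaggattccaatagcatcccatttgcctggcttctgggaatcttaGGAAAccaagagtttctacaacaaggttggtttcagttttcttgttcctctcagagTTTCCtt
Ccr1, chr9:123968693-123968942, minus strand: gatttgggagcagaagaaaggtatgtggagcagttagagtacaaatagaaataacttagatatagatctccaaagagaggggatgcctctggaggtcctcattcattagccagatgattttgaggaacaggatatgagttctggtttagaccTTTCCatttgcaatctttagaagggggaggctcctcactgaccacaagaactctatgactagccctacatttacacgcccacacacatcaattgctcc
The Fpr1 window held 3 such matches, the nearest beginning 53 bases before the start, the Fpr2 window 2 and the Ccr1 window 1. GGAAA was found on either strand in the windows of 8 of the 9 receptors, Cxcr3 being the exception, and in 55.6% of 32851 promoter windows of this length. The PU.1 letters GAGGAAG occurred for Cxcr3 alone of the 9 (10.6% of all windows), 15 bases before its start. The AP-1 letters TGANTCA occurred for C3ar1 alone (6.75% of all windows), and the interferon-stimulated response element for 0 of the 9 (2.98% of all windows). TATAAA occurred for Cxcr4, C3ar1, Fpr1 and Fpr2 (12.4% of all windows). The nearest of these matches began 30, 235, 227 and 130 bases before the start, in that order. A match of letters is a description and does not show that a factor binds there.

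Of the 9 receptors, 4 were higher and 3 were lower with DASA-58 when judged by an adjusted p under 0.05 (limma with Benjamini-Hochberg correction across the tested genes). The background over all genes tested was 4.24% higher and 7.28% lower, and nothing is read from the difference because the receptors were chosen on this comparison. Fpr1, Fpr2, Cxcr3 and C3ar1 were higher, Ccr1, Cx3cr1 and Cxcr4 were lower, and Ccr2 and C5ar1 did not pass. The groups did not overlap in the 7 receptors that passed, 4 higher and 3 lower, where 11.8% of all genes tested lay higher and 21.6% lower without overlap, 33.4% in all. The median log2 fold change of the 9 receptors was 0.11, beside -0.03 for all genes tested, with a range from -0.67 for Ccr1 to 0.84 for Fpr1. Fold changes are on the scale of log2(FPKM + 1), which understates the change of low genes.

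**Figure D1:**
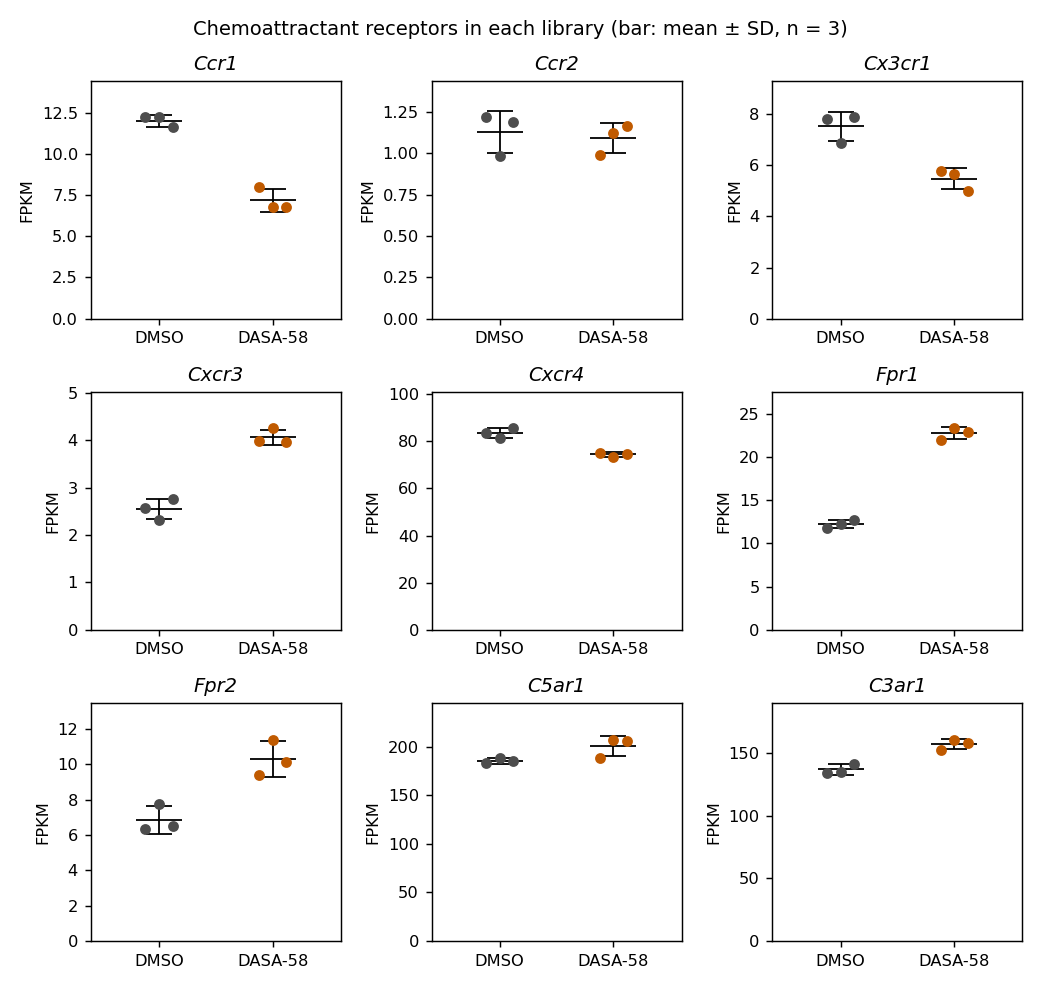
FPKM (vertical axes, each from 0) of the 9 receptors in every library, with DMSO in grey, DASA-58 in orange and bars for the mean ± SD (n = 3). The 2 groups are apart in 7 panels and overlap for Ccr2 and C5ar1.

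Of the 9 receptors, Fpr1 had the largest increase. FPR1 senses formylated peptides that bacteria and mitochondria release. Fpr1 stood at 11.8, 12.3 and 12.7 FPKM in DMSO replicates 1, 2 and 3 and at 22.0, 23.3 and 23.0 FPKM in DASA-58 replicates 1, 2 and 3. Every DASA-58 library was above every DMSO library, and the gap of 9.33 FPKM between the groups was wider than the spread within either, which was at most 1.31 FPKM. The mean with DASA-58 was 186% of that with DMSO, a log2 fold change of 0.84 (standard error, SE, 0.040), and the values rest on 287 to 307 and 549 to 577 fragments per library. Leaving out single libraries kept the fold change between 0.82 and 0.86. The spread between libraries was 3.59% with DMSO and 2.98% with DASA-58 (SD as a share of the mean). The fragment numbers give a larger counting error, of 5.78% and 4.22%.

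Fpr2, whose product also binds annexin A1, serum amyloid A and the peptide CRAMP, was at 6.35, 7.78 and 6.48 FPKM with DMSO and at 9.38, 11.4 and 10.1 FPKM with DASA-58. The groups were apart, but by less (1.61 FPKM) than the widest range within a group (2.03 FPKM). Its mean was 150% of that with DMSO, with a log2 fold change of 0.52 (SE 0.087), from 151 to 190 and 229 to 269 fragments. Fpr1 exceeded Fpr2 1.80 ± 0.195-fold with DMSO and 2.22 ± 0.157-fold with DASA-58 (SD, n = 3 each). Part of the Fpr2 value is uncertain, because 31.5% of the 50-base words in its transcripts also occur in other genes of the annotation, mostly in Gm5966 and Fpr3, against 0.078% for Fpr1. Fpr3 also shares 48 exon bases with Fpr2, and it was at 0 FPKM in 5 of the 6 libraries. Neutrophils are the other cells known for these receptors. The summed level of 10 neutrophil markers was 182 to 186 FPKM with DMSO and 154 to 159 FPKM with DASA-58, with 3 lower and 2 higher of 9 tested (limma), and Ly6g held 0, 1 and 1 fragments with DMSO and 0 in each DASA-58 library. Among all genes tested, 7.28% were lower and 4.24% higher. The part of neutrophils in the formyl peptide receptor values was not tested.

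The complement receptors were the most abundant of the 9. C5AR1 recognises the anaphylatoxin C5a and C3AR1 the anaphylatoxin C3a. C3ar1 was at 134, 135 and 142 FPKM with DMSO and at 153, 161 and 159 FPKM with DASA-58. All DASA-58 libraries were higher, and the difference was small, with 115% of the DMSO mean and a log2 fold change of 0.20 (SE 0.032). C5ar1 was at 183.0, 188.8 and 185.6 FPKM with DMSO and at 188.7, 207.6 and 206.6 FPKM with DASA-58. DASA-58 replicate 1 fell among the DMSO libraries, and the mean was 108% of that with DMSO (log2 fold change 0.11, SE 0.040). Leaving out single libraries gave log2 fold changes from 0.09 to 0.16, the highest without DASA-58 replicate 1, and C5ar1 was called under 2 of 16 alternatives, that one and voom weights (limma). The spread of C5ar1 with DASA-58 was 5.30% (SD as a share of the mean), where 9130 to 10070 fragments give a counting error of 1.02%.

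CXCR3 binds interferon-induced chemokines and is best known from T cells and NK cells. Cxcr3 was at 2.58, 2.33 and 2.76 FPKM with DMSO and at 3.99, 4.26 and 3.96 FPKM with DASA-58. The groups did not overlap, and the gap of 1.20 FPKM exceeded the widest range within a group, 0.431 FPKM. The mean reached 159% of that with DMSO, with a log2 fold change of 0.51 (SE 0.063) on this scale and a log2 ratio of the mean FPKM of 0.67. Its fragments numbered 76 to 87 with DMSO and 130 to 134 with DASA-58, fewer than for any other of the 9 receptors with DMSO. The spread between libraries, 8.48% with DMSO and 4.01% with DASA-58, was below the counting error of 11.1% and 8.73%. All 12 T and NK cell markers were under the filter, with a summed level of 2.02 to 2.56 FPKM with DMSO and 1.68 to 2.54 FPKM with DASA-58, the highest being Nkg7 with a mean of 0.735 FPKM. Of them, Cd3d, Cd3g, Cd2, Cd8a and Gzma were at 0 in at least 1 library, and the sums of the 2 groups overlapped. The part of T and NK cells in the Cxcr3 values was not tested.

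CXCR4, the receptor of CXCL12, holds blood precursors in the marrow. Cxcr4 was at 83.6, 81.2 and 85.5 FPKM with DMSO and at 75.2, 73.3 and 74.7 FPKM with DASA-58. It was lower in every DASA-58 library, by little (89.2% of the DMSO mean, log2 fold change -0.16, SE 0.029). Of the 9 receptors it varied least with DASA-58, with a spread of 1.31%.

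CCR1 answers several inflammatory CC chemokines. Ccr1 was at 12.2, 12.2 and 11.6 FPKM with DMSO and at 7.99, 6.77 and 6.79 FPKM with DASA-58. The groups were separated by 3.63 FPKM, well beyond the widest range within a group of 1.21 FPKM. The mean with DASA-58 was 59.8% of that with DMSO, and the log2 fold change was -0.67 (SE 0.062). Without single libraries it lay between -0.74 and -0.64. The fragments numbered 599 to 653 with DMSO and 349 to 426 with DASA-58, and none of the 50-base words of its transcripts occurred in another gene.

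CX3CR1 is the receptor of the membrane-bound chemokine fractalkine. Cx3cr1 was at 7.81, 6.88 and 7.87 FPKM with DMSO and at 5.78, 5.64 and 5.0 FPKM with DASA-58. The gap of 1.10 FPKM was barely wider than the widest range within a group, 0.999 FPKM. The mean with DASA-58 was 72.7% of that with DMSO, with a log2 fold change of -0.40 (SE 0.068), from 584 to 646 and 427 to 490 fragments. Its annotated exons share 78 bases, 1.73% of the total, with the antisense gene Gm33858, and the use of strand in counting is not given in the sources used here.

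CCR2, the receptor of CCL2, marks classical monocytes. Ccr2 was the lowest of the 9, at 1.22, 0.981 and 1.19 FPKM with DMSO and at 0.990, 1.12 and 1.16 FPKM with DASA-58. The groups overlapped throughout, with 125 to 151 and 126 to 149 fragments and a log2 fold change of -0.02 (SE 0.084). The summed level of 6 other monocyte markers was 24.0 to 25.4 FPKM with DMSO and 18.1 to 19.2 FPKM with DASA-58, and 2 of the 4 tested, Vcan and Chil3, fell (limma). The share called lower over all genes tested was 7.28%. The part of monocytes in the values of Ccr2 and Cx3cr1 was not tested.

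**Figure D2:**
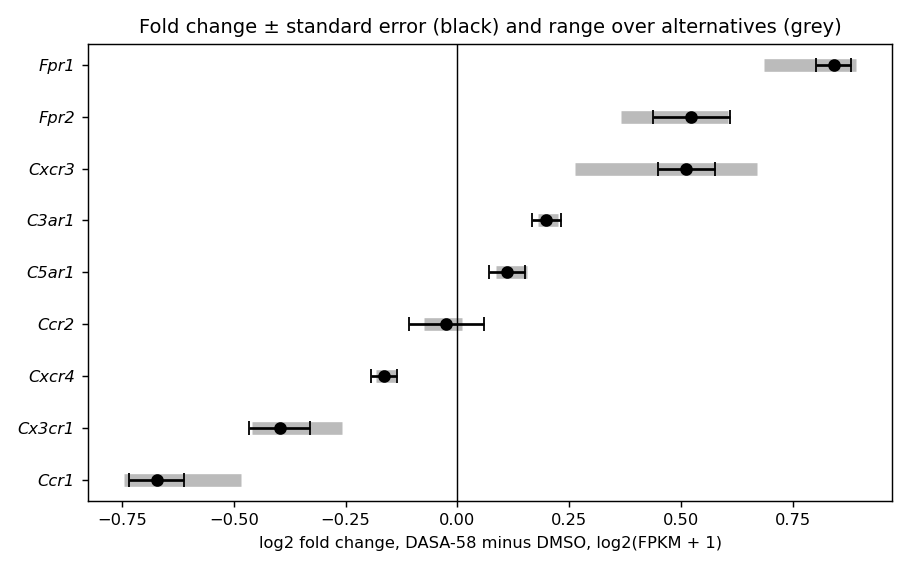
Log2 fold change of each receptor (horizontal axis, DASA-58 minus DMSO on log2(FPKM + 1)) with its standard error (SE) in black and the range over all alternative settings in grey. The range stayed on one side of 0 for 8 receptors and crossed it for Ccr2, from -0.08 to 0.01.

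Ordered by FPKM, a level per gene length, the receptors with DMSO ran from C5ar1 (186 ± 2.88, SD, n = 3) over C3ar1 (137 ± 4.15), Cxcr4 (83.4 ± 2.14), Fpr1 (12.3 ± 0.440), Ccr1 (12 ± 0.352), Cx3cr1 (7.52 ± 0.560), Fpr2 (6.87 ± 0.788) and Cxcr3 (2.56 ± 0.217) to Ccr2 (1.13 ± 0.128). The neighbours Fpr1 and Ccr1 overlapped, as did Cx3cr1 and Fpr2, and the other neighbours were apart in all libraries. With DASA-58 the order was C5ar1 (201 ± 10.7, SD, n = 3), C3ar1 (158 ± 4.13), Cxcr4 (74.4 ± 0.976), Fpr1 (22.8 ± 0.678), Fpr2 (10.3 ± 1.02), Ccr1 (7.18 ± 0.695), Cx3cr1 (5.47 ± 0.416), Cxcr3 (4.07 ± 0.163) and Ccr2 (1.09 ± 0.0901), with no overlap between neighbours. Fpr1 and Ccr1 were thus at the same level with DMSO (ratio 1.02 ± 0.0645, SD, n = 3) and 3.20 ± 0.380-fold apart with DASA-58. The ratio of Cxcr3 to Cx3cr1 was 0.340 ± 0.0101 with DMSO and 0.746 ± 0.0515 with DASA-58. Among all genes listed, Fpr1 stood at place 4254 with DMSO and at place 2496 with DASA-58, and Ccr1 at places 4324 and 5934. C5ar1 made up 41.4% of the summed FPKM of the 9 receptors with DMSO and 41.5% with DASA-58, C3ar1 30.6% and 32.6%, and Cxcr4 18.6% and 15.4%. The summed level was 443 to 456 FPKM with DMSO and 467 to 495 FPKM with DASA-58.

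Of 34 other receptors of the class, 27 were in the table and 9 passed the filter, beside 10965 of all 23504 genes. Of the 27, 8 held at most 3 fragments in every library, which is what a count of 0 allows and covers counting error only. Of the 9 tested, 3 fell and 1 rose (limma with Benjamini-Hochberg correction across the tested genes), and their median log2 fold change was 0.03. The shares over all genes tested were 7.28% lower and 4.24% higher. S1pr1, a receptor of sphingosine 1-phosphate that guides cells out of tissues, rose from 13.2 ± 0.648 to 17.0 ± 0.0283 FPKM (SD, n = 3 each, log2 fold change 0.34, adjusted p = 0.0025, limma). The spread of S1pr1 with DASA-58 was 0.167%, below its counting error of 3.22%. Gpr183, the receptor of oxysterols, fell from 14.4 ± 0.281 to 12 ± 0.665 FPKM (log2 fold change -0.25, adjusted p = 0.013, limma), and the call was lost without DMSO replicate 1 and without DASA-58 replicate 1 (adjusted p at most 0.054). Ptafr, the receptor of platelet-activating factor, fell from 73.1 ± 1.43 to 65.5 ± 3.05 FPKM (log2 fold change -0.16, adjusted p = 0.039, limma), a call that held under 6 of 16 alternatives. Without DMSO replicate 1 the number called lower was 1. In the cluster on chromosome 9, Ccr1 was lower, whereas Ccr3 (3.31 ± 0.508 and 2.90 ± 0.145 FPKM, adjusted p = 0.37, limma) and Ccr2 overlapped between the groups. Of the 50-base words of Ccr2, 1.91% also occurred in other genes.

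Among the ligands of the 9 receptors, more fell than rose with DASA-58. Of 20 ligand genes, 19 were in the table and 13 passed the filter, of which 7 fell, 1 rose and 5 did not pass (limma with Benjamini-Hochberg correction across the tested genes). Over all genes tested, 7.28% were lower and 4.24% higher. The median log2 fold change of the ligands was -0.23, beside -0.03 for all genes tested. The 7 that fell were Cxcl10, Camp, Ccl2, Ccl7, Ccl5, Ccl9 and Mif, and the 1 that rose was Ccl6. The number lower was 4 without DMSO replicate 1, without DMSO replicate 2, without DASA-58 replicate 2 or with no filter on low values.

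**Figure D3:**
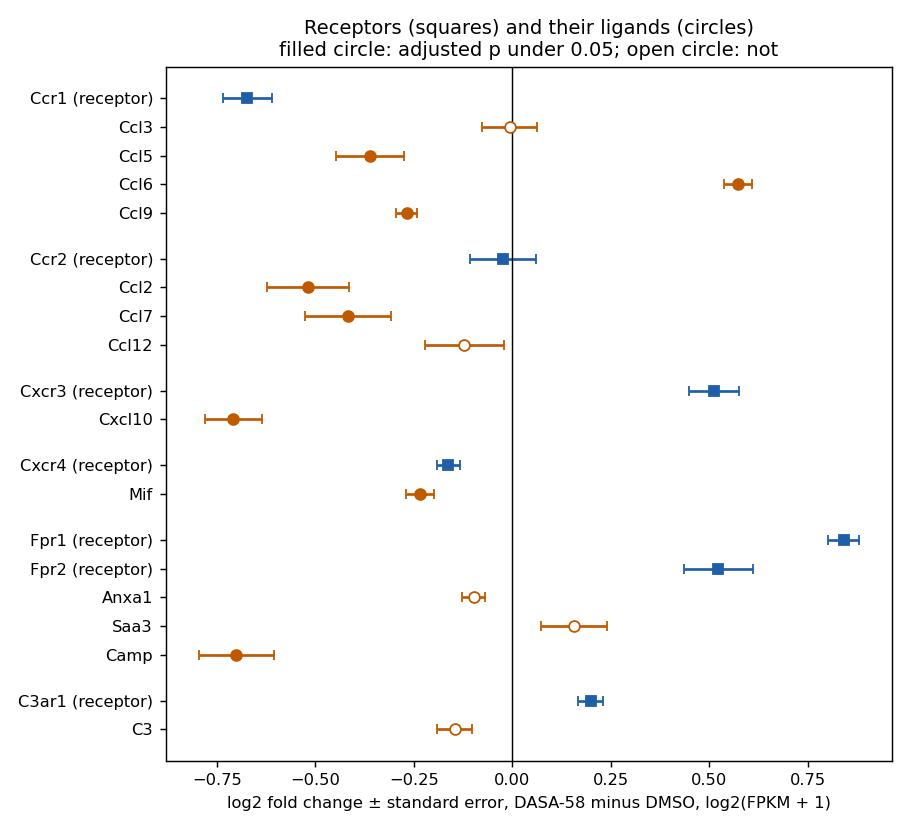
Log2 fold change ± SE (horizontal axis, DASA-58 minus DMSO on log2(FPKM + 1)) of receptors (blue squares) and, under each, its tested ligands (orange circles, filled at an adjusted p under 0.05). Anxa1 is a ligand of both formyl peptide receptors. Cxcr3 and Fpr2 lie to the right of 0 with Cxcl10 and Camp to the left, while Ccr1 lies to the left with Ccl6 to the right.

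Cxcl10, a chemokine that interferons induce and the only tested ligand of Cxcr3, was at 10.7, 9.09 and 11.1 FPKM with DMSO and at 5.64, 5.83 and 6.23 FPKM with DASA-58. It fell to 57.3% of the DMSO mean, or -0.71 in log2 fold change (SE 0.073, adjusted p = 0.0012, limma), and passed the threshold in 16 of 16 alternatives. Cxcr3 was higher and Cxcl10 lower in each DASA-58 library than in any DMSO library. The other ligands of Cxcr3 were under the filter. Cxcl11 held 6, 7 and 10 fragments with DMSO and 0, 2 and 1 with DASA-58, and Cxcl9 held 2 to 6 fragments in every library.

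Ccr1 stood with ligands that moved in both directions. Ccl6 was at 66.2, 70.7 and 67.9 FPKM with DMSO and at 98.6, 103 and 105 FPKM with DASA-58, and it rose to 150% of the DMSO mean (log2 fold change 0.57, SE 0.036, adjusted p = 1.2e-04, limma). Ccl9, a chemokine that osteoclasts and their precursors make, was the most abundant chemokine among these ligands and fell from 378 ± 6.14 to 314 ± 7.16 FPKM (SD, n = 3 each, log2 fold change -0.27, adjusted p = 0.0011, limma). Ccl5 fell from 4.03 ± 0.381 to 2.92 ± 0.387 FPKM (adjusted p = 0.036, limma), a call that held under 5 of 15 alternatives. Ccl3 was at 16.9 ± 1.33 and 16.8 ± 1.31 FPKM (adjusted p = 0.96, limma).

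Ccr2 overlapped between the groups, and 2 of its 3 tested ligands fell. Ccl2, the main monocyte attractant, was at 12.6, 13.1 and 9.70 FPKM with DMSO and at 7.19, 8.02 and 8.43 FPKM with DASA-58 (log2 fold change -0.52, SE 0.10, adjusted p = 0.019, limma). The call was lost with no filter on low values and without DMSO replicate 1, DMSO replicate 2, DASA-58 replicate 1 or DASA-58 replicate 2, and its adjusted p was at most 0.089 over all alternatives (limma). Ccl7 fell from 4.23 ± 0.547 to 2.93 ± 0.483 FPKM (adjusted p = 0.048, limma) and held under 2 of 15 alternatives, being lost with any single library left out. Ccl12 was at 2.15 ± 0.279 and 1.90 ± 0.310 FPKM (adjusted p = 0.48, limma).

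Among the ligands of the formyl peptide receptors, Camp, the gene of CRAMP, was at 6.61, 7.35 and 6.16 FPKM with DMSO and at 3.29, 4.42 and 3.55 FPKM with DASA-58. It fell to 56.0% of the DMSO mean (log2 fold change -0.70, SE 0.095, adjusted p = 0.0040, limma), from 85 to 105 and 47 to 61 fragments, and passed in 16 of 16 alternatives. Camp is also a product of neutrophil granules. Of the neutrophil markers, S100a8, S100a9 and Ngp fell (log2 fold changes -0.25, -0.28 and -0.42, limma) and Mmp8 and Csf3r rose (0.51 and 0.38, limma), and their part in the Camp values was not tested. Anxa1, the gene of annexin A1, was at 496 ± 12.4 and 463 ± 12.1 FPKM (adjusted p = 0.074, limma), and Saa3 at 3.57 ± 0.127 and 4.12 ± 0.584 FPKM (adjusted p = 0.27, limma).

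For Cxcr4, Mif, a cytokine that also binds it, fell from 332 ± 16.4 to 282 ± 3.58 FPKM (log2 fold change -0.23, adjusted p = 0.0071, limma), whereas Cxcl12 was under the filter with 30 to 54 fragments. C3, the precursor of C3a, was at 79.9 ± 3.0 and 72.1 ± 3.67 FPKM (adjusted p = 0.073, limma). Hc, the gene of C5, held at most 1 fragment in every library, and Cx3cl1, the gene of fractalkine, held 16 to 23.

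**Figure D4:**
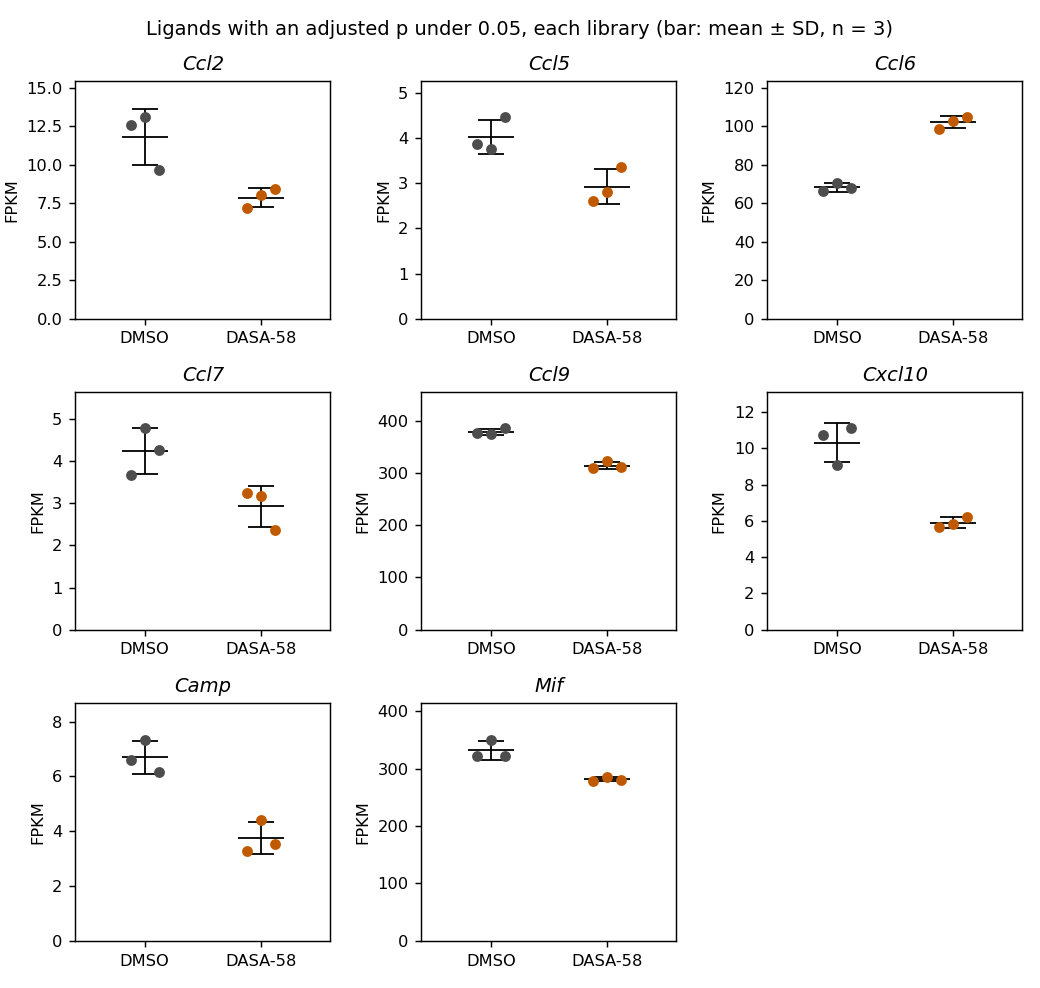
FPKM (vertical axes, each from 0) of the 8 ligands with an adjusted p under 0.05 in every library, with DMSO in grey, DASA-58 in orange and bars for the mean ± SD (n = 3). The groups are apart in every panel, with Ccl6 above the DMSO libraries and the other 7 below them.

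Genes of the shared machinery downstream of the receptors moved in both directions, and most did not pass the test. Of 37 signalling genes, 33 passed the filter, of which 3 fell, 5 rose and 25 did not pass (limma with Benjamini-Hochberg correction across the tested genes). Over all genes tested, 4.24% were called higher and 7.28% lower, 11.5% in either direction, so that most genes did not pass there either. The groups did not overlap for 12 signalling genes that were higher and 5 that were lower, beside 11.8% and 21.6% of all genes tested. The median log2 fold change of the list was 0.04. Gnai2, the most abundant Gi subunit of the list, had means of 310 ± 9.72 and 312 ± 2.91 FPKM (SD, n = 3 each, adjusted p = 0.85, limma). Rgs18, which shortens Gi signals, rose from 12.1 ± 0.599 to 15.9 ± 0.574 FPKM (log2 fold change 0.36, adjusted p = 0.0029, limma). Grk3, a kinase that desensitises receptors, fell from 10.2 ± 0.420 to 7.78 ± 0.607 FPKM (log2 fold change -0.35, adjusted p = 0.0093, limma). Of the subunits of PI3-kinase gamma, the regulatory subunit Pik3r5 fell to 79.4% of the DMSO mean (log2 fold change -0.33, adjusted p = 0.0012, limma). The catalytic subunit Pik3cg rose to 115% (log2 fold change 0.18, adjusted p = 0.033, limma), a call that held under 7 of 16 alternatives. The other regulatory subunit, Pik3r6, was at 99.5% of the DMSO mean (adjusted p = 0.96, limma). Rgs18, Grk3 and Pik3r5 passed in 16 of 16 alternatives. Gng2, Ptk2b, Arrb2 and Gnb4 also passed, with log2 fold changes of 0.17, 0.13, 0.14 and -0.28 (limma). Rgs18 was the only gene called higher without DMSO replicate 1, DASA-58 replicate 2 or DASA-58 replicate 3. The count was 2 without DASA-58 replicate 1, 3 without DMSO replicate 3, and 3 without DMSO replicate 2, where Gng5 was newly called. Gnb4 lost its call with any single library left out.

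For Fpr1, Cxcr3 and Cx3cr1 the tested genes with the most alike profile were sought, by the smallest root mean square difference of log2(FPKM + 1) after centring each gene on its mean over the 6 libraries. They are a description over 6 libraries in 2 groups, and much of the likeness is the difference between the groups. Fpr1 was closest to Gsta3, Clec4n and Slc40a1 (0.051, 0.059 and 0.069 log2 units, Pearson's r of 0.99 each). Gsta3, a glutathione transferase, had means of 8.44 and 16.4 FPKM with DMSO and DASA-58, and Clec4n, a lectin receptor, of 60.1 and 110 FPKM. Cxcr3 was closest to Cd36, a scavenger receptor, Cd84 and Mgst1 (0.042, 0.047 and 0.051), with means of Cd36 of 347 and 499 FPKM. Cx3cr1 was closest to Acsl1, Pmaip1 and Itgav (0.037, 0.041 and 0.045), with means of Acsl1, an enzyme that activates fatty acids, of 20 and 14.6 FPKM.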

How the data were processed

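RNA of 6 libraries was analysed, 3 with DMSO and 3 with DASA-58, grouped by the treatment label. The authors deposited FPKM values per gene and library. The submitters' processing notes list HISAT2 2.1.0, HTSeq 0.6.0 and mm8, and the annotation, strand setting and scaling are not given in the sources used here. There were 0 unmapped value columns. Of the identifiers, 23455 had a symbol and 49 had none. With GENCODE M21 gene lengths, values came out as whole fragments (within 0.02) in all libraries for 21373 genes (90.9%). These fragments state precision and entered only the voom alternative. The comparison used limma 3.58.1 (R 4.3.3) on log2(FPKM + 1), restricted to genes whose mean reached 1 FPKM (lmFit, eBayes with a trend, Benjamini-Hochberg adjustment, threshold 0.05), without a replicate block. The fit was tested on simulated data.

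The receptors and the gene lists were chosen with earlier results of these data known. Named were all 9 receptors, every tested ligand, of the other lists up to 5 genes per direction with the smallest p among those past the threshold, and 3 genes of alike profile each for Fpr1, Cxcr3 and Cx3cr1. Ccr3, Gnai2, Pik3r6, Gng5, Vcan, Chil3, Fpr3, the untested ligands and the named T and NK cell and neutrophil markers were named after their values were seen. Lists of B cell, dendritic cell, mast cell and stromal markers had summed levels of at most 2.38, 2.09, 0.318 and 36.3 FPKM in any library. Of 5, 7, 5 and 6 listed genes, 3, 6, 2 and 5 were in the table. Of these, 1, 0, 0 and 3 were tested, with 0 calls (limma). The dendritic and mast cell lists thus had no test. Alternatives were pseudocounts of 0.1 and 5, no filter, a mean of 5 FPKM, 3 scalings, no trend, voom weights, a replicate block and each library left out. Tables and figures used matplotlib 3.10.9, numpy 2.4.6 and pandas 2.3.3 under Python 3.11.15. Of the genes this rule names, 1 is not reported here.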

Additional observations from a re-analysis of the deposited data

How the results depend on the processing

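Over 16 alternatives the number of receptors called higher (4) or lower (3) stayed within 1.5 times its reported value, and the direction of the 7 called receptors did not reverse. With a mean of 5 FPKM required, Cxcr3 and Ccr2 were under the filter and had no fit. These refits use the libraries on which the receptors were chosen, so they are a description and carry no test. Cx3cr1 and Fpr2 lost their call with no filter on low values. Of all genes, 372 were lower and 257 higher with no filter, 515 were lower with no trend in the variance, and 504 were lower with centring on the median. Voom weights gave 1147 lower and 649 higher genes. Single libraries left out gave 387 to 603 lower and 272 to 375 higher genes, where 798 and 465 are reported. Calls were 63.2% lower on the deposited scale, 71.3% with equal library totals, 45.8% after median centring and 49.5% after quantile normalization. The ligands called lower numbered 4 with no filter and 4 to 6 with single libraries left out, and the other receptors called lower 1 to 2. The signalling genes called higher numbered 1 with no filter, 2 with equal library totals, 1 with no trend, 1 with a replicate block and 1 to 3 with single libraries left out. The causes were not tested.

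For same-numbered libraries, the correlation of their deviations from the group means was -0.02, 0.02 and -0.02 for replicates 1, 2 and 3. Between libraries of different number it ran from -0.05 to 0.06. Nothing states whether same-numbered libraries share an origin, and correlations over 3 libraries per group cannot decide it. The replicate block gave 579 lower and 378 higher genes, and 3 receptors lower and 4 higher. The pseudocount moved Cxcr3 most, with a log2 fold change of 0.65 at 0.1 and 0.26 at 5. Ccr1 had -0.74 and -0.48, and Ccr2, the lowest of the receptors, had -0.04 and -0.01. Depth limits Cxcr3 and Ccr2 most, whose counting error was 8.45% to 11.1% per library on average within a group.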
